A study of Mus musculus with 6 samples.

Results

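The upper layers of the epidermis make a barrier from dead, flattened cells, and the 10 genes described here encode proteins of that last step. They are the transglutaminases Tgm1, Tgm3 and Tgm5, the proteases Casp14 and Asprv1, the cell adhesion protein Cdsn, the secreted proteins Sbsn, Krtdap and Dmkn, and the calcium-binding protein Calm4. The rule takes them from the count table by their symbols alone. All 10 were found among the 19618 genes of the count table, and all 10 passed the filter on low counts.

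A keratinocyte starts in the basal layer, moves outwards and switches on keratins 1 and 10, and then builds a cornified envelope under its membrane. Transglutaminases cross-link the envelope proteins, desmosomes are remodelled into corneodesmosomes that hold the dead cells together, and filaggrin is cut into small products that keep the layer moist. Suprabasin, dermokine and the Krtdap product are secreted by suprabasal cells.

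Bulk RNA was sequenced from tail keratinocytes of mice aged 4 months, with 3 knockout and 3 control libraries. The knockout mice carried K14cre, in which a keratin 14 promoter drives Cre recombinase in basal keratinocytes and so marks their progeny too, and were homozygous for the floxed allele of Gpr161 (K14cre+/ Gpr161Flox-Homozygous). K14cre was absent from all controls, as their labels give it. The control titled 1 was Gpr161Flox-Homozygous, and those titled 2 and 3 were Gpr161Flox-Heterozygous. Expression of Cre and loss of the gene therefore cannot be told apart. Gpr161 encodes a receptor in primary cilia that is known to hold back Hedgehog signalling, and the comparison asks how keratinocyte expression differs without it. The count columns name the group only, so libraries go by their tags. Knockout libraries were DE679, DE685 and DE688, and control libraries were DE680, DE684 and DE689.

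Total estimated counts were between 17157864 and 25344399 per library. DE685 in the knockout and DE684 in the control held Y-linked transcripts and the other 4 libraries did not. Gpr161 itself had 26.8, 33.6 and 25.9 CPM (counts scaled to an equal total in every library) in the knockout and 30.2, 32.2 and 31.9 in the control, in the library order given above. It differed by −0.13 on the log2 scale (SE 0.11, adjusted p 0.553, from the quasi-likelihood test of edgeR with Benjamini-Hochberg adjustment), so the gene's total does not check the labels, and "knockout" means a library labelled so. Markers of the labelled cells were abundant: Krt1 and Krt10 together had 13995 to 21463 CPM in the knockout and 15831 to 29575 in the control. Markers of other cells summed to at most 5.09 CPM for endothelium, 100 for melanocytes, 123 for immune cells and 142 for fibroblasts, and are given by group further on. In bulk RNA, fewer cells of a type and less RNA per cell cannot be told apart. Nothing in the labels beyond the titles says that the libraries came from separate animals, so the p-values measure the spread between these libraries.

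Of the 10 genes, 1 changed between the groups: Tgm5 rose 2.25-fold. No gene fell by the edgeR test, although 5 of the 10, Tgm5 among them, had an unadjusted p under 0.05, beside 19% of all genes, and the DESeq2 test called 3 of them lower (Calm4, Dmkn and Krtdap). Across all 15422 tested genes, 1.6% passed an adjusted p of 0.05 in the edgeR quasi-likelihood test, 1.24% as higher and 0.357% as lower. DESeq2 called 879 of the same 15422 genes, 310 of them as lower. Log2 fold changes were below 0 for 7 of the 10 genes, beside 50.7% of all tested genes, and this count was not tested. The 95% intervals of Tgm1, Casp14 and Asprv1, which are among the 7, included 0. The median log2 fold change was −0.17, beside −0.0036 for all genes. In 5 genes (Calm4, Krtdap, Dmkn, Sbsn and Tgm1) every knockout library lay below every control library, and in Tgm5 every one lay above. Over all tested genes 12.8% were apart below and 12.8% apart above, 25.6% in all.

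**Figure D1:**
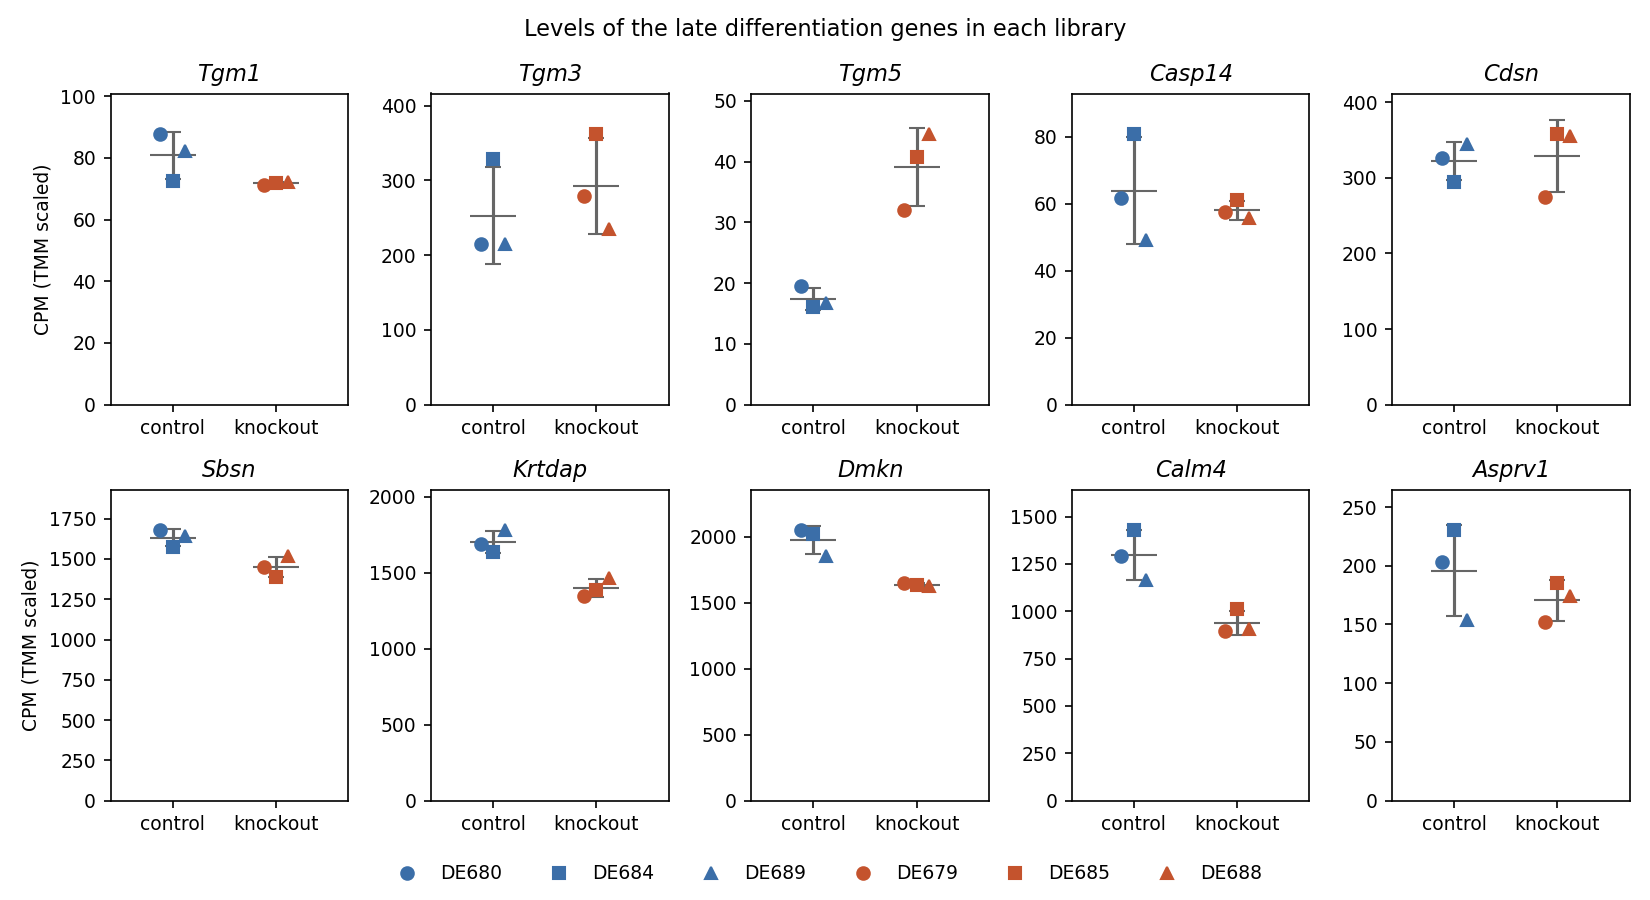
Level of each of the 10 genes in CPM with TMM scaling (y axis, from 0), by group (x axis). Each point is 1 library, the wide line is the group mean and the bars are 1 SD (n = 3 each). The Tgm5 points of the knockout, 32.1 to 44.5 CPM, lie above all control points, and those of Calm4, Krtdap, Dmkn and Sbsn lie below them.

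Levels are given as CPM scaled by TMM (trimmed mean of M values), a count over the library's effective total, where 3 counts correspond to 0.117 to 0.173 CPM. Per kilobase of exon the order of the genes spanned a wide range. In the control Krtdap was highest, at 2504 ± 108 CPM per kilobase (SD, n = 3), followed by Calm4 at 1412 ± 144, Dmkn at 902 ± 47.5 and Sbsn at 450 ± 14.6. Asprv1 at 127 ± 25.2 and Cdsn at 120 ± 9.50 CPM per kilobase overlapped. Then came Tgm3 at 61.1 ± 15.8, Casp14 at 26.7 ± 6.64, Tgm1 at 25.6 ± 2.42 and Tgm5 at 5.53 ± 0.571 CPM per kilobase. Casp14 and Tgm1 also overlapped in the control, and the other neighbours in this order did not. The order of the means in the knockout was that of the control except that Cdsn (123 CPM per kilobase) stood above Asprv1 (110). Tgm5 thus stayed the lowest of the 10 genes per length even after its rise, at 12.4 ± 2.02 CPM per kilobase.

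Of the 3 transglutaminases, Tgm5 passed the test and Tgm1 and Tgm3 did not. Each of them joins glutamine to lysine side chains. Tgm1 is anchored in the membrane, where it attaches proteins and lipids to the envelope, Tgm3 is activated by proteolysis, and Tgm5 cross-links envelope proteins in the upper layers. Loss of the human orthologue of Tgm1 is a known cause of lamellar ichthyosis, and that of Tgm5 of acral peeling skin.

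Tgm5 (chromosome 2, 121046111 to 121085841, minus strand, GRCm38) had 32.1, 40.8 and 44.5 CPM in the knockout libraries DE679, DE685 and DE688, and 19.5, 16.1 and 16.8 CPM in the control libraries DE680, DE684 and DE689. The lowest knockout library was well above the highest control library. Knockout and control means were 39.2 ± 6.39 and 17.4 ± 1.80 CPM (SD, n = 3 each). On the log2 scale the difference was 1.17 (SE 0.14, 95% interval 0.85 to 1.48, edgeR quasi-likelihood adjusted p 0.00977), a fold of 2.25 (1.80 to 2.80). The call rests on 366 to 1145 counts per library. With 1 library left out at a time it held in all 6 fits, with log2 fold changes from 1.06 to 1.30 and edgeR adjusted p from 0.00921 to 0.0456. In the 4 libraries without Y-linked transcripts, 2 per group, the log2 fold change was 1.08 and the edgeR adjusted p was 0.0711.

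Because Tgm5 stood apart from the other genes, the 250 bases before its RefSeq start are shown, with those of 4 other genes given further on. The windows are from RefSeq (GRCm38.p6), written 5′ to 3′ on the gene's strand in lower case. Capitals mark matches to 5 consensus motifs: TGANTCA for AP-1 factors, CACCC for Krüppel-like factors (KLF), AACCNGTT for grainyhead-like factors (GRHL), GACCACCCA for GLI, the transcription factors of the Hedgehog pathway, and TATAAA for the TATA box. The CACCC motif lies inside the GLI motif, TATAAA was read on the gene's strand only and the others on both strands. Tgm5 lies on the minus strand, at chr2:121085842-121086091.
Tgm5: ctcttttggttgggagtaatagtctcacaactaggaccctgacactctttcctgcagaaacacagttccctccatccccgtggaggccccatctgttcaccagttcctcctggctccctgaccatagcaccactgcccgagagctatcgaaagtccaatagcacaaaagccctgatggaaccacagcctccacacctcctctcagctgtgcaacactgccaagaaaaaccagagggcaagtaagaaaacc
No capitals appear, so none of these letters occurred in this window. Of 32851 windows of the same length at all RefSeq starts, 0.225% held the GLI motif, 6.75% AP-1, 52.0% CACCC, 1.79% GRHL and 7.59% TATAAA.

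No rise was called for the genes around Tgm5. The window of 100 kb on either side, chosen after the values were seen, held 7 other tested genes, of which 0 passed the edgeR test, 0 had an unadjusted p under 0.05 and 0 passed DESeq2. Their log2 fold changes ran from −0.17 to 0.28 with a median of 0.046, and in 2 of the 7 the groups did not overlap, beside 25.6% of all genes. The adjoining family members Tgm7 and Epb42, which encodes an inactive relative in the red cell membrane, did not pass the filter on low counts.

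**Figure D2:**
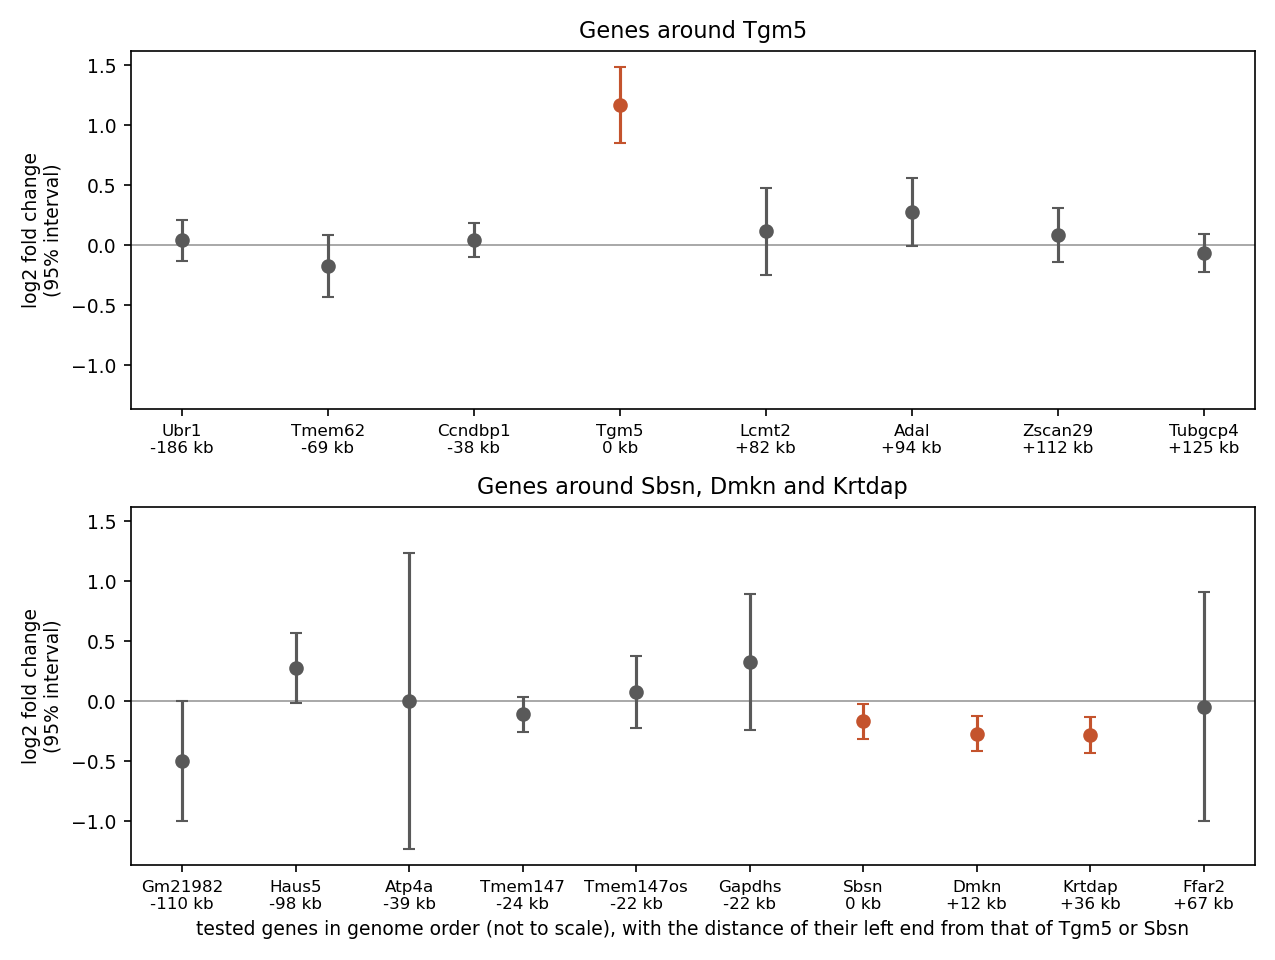
Log2 fold change with its 95% interval (y axis) for the tested genes within 100 kb of Tgm5 (upper panel) and of the stretch from Sbsn to Krtdap (lower panel), in genome order along the x axis with the distance of each left end in kb. Tgm5 stands alone at 1.17, while its 7 neighbours lie between −0.17 and 0.28.

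Tgm1 (chromosome 14, 55700009 to 55713926, minus strand) had 71.3, 71.7 and 72.2 CPM in DE679, DE685 and DE688, and 87.7, 72.6 and 82.2 CPM in DE680, DE684 and DE689. The knockout libraries were nearly equal and lay just under the lowest control library. The means were 71.7 ± 0.415 and 80.8 ± 7.67 CPM (SD, n = 3 each), with a log2 fold change of −0.17 (95% interval −0.35 to 0.0038, edgeR adjusted p 0.271). Between the 2 libraries with Y-linked transcripts the log2 difference was −0.016, against −0.24 between the means of the others. Its exons share 182 bases with an antisense gene, and whether the strand was used in counting is not given in the sources used here.

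Tgm3 (chromosome 2, 130012349 to 130050399, plus strand) had 279, 362 and 235 CPM in the knockout libraries DE679, DE685 and DE688 and 215, 328 and 215 CPM in the control libraries DE680, DE684 and DE689. In each group the library with Y-linked transcripts was the highest, and the groups overlapped. The log2 fold change was 0.21 (95% interval −0.26 to 0.68, edgeR adjusted p 0.618). The value rested on single libraries, since it was 0.023 without DE685 and 0.44 without DE684. With sex as a covariate it was 0.22 with a smaller SE (0.075 against 0.20, unadjusted p 0.020, edgeR adjusted p 0.161), and in the libraries without Y-linked transcripts 0.26 (unadjusted p 0.035, edgeR adjusted p 0.267).

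The other members of the transglutaminase family give a mixed picture. Of 6 listed genes 3 were tested and 1 passed, namely Tgm2, the widely expressed tissue transglutaminase. Tgm2 had 11.7, 13.5 and 11.6 CPM in DE679, DE685 and DE688 and 6.43, 5.31 and 6.78 CPM in DE680, DE684 and DE689, and it rose by 0.99 on the log2 scale (SE 0.14, edgeR adjusted p 0.0198). It kept the call in 1 of 6 fits that left out a library, the one without DE689 (edgeR adjusted p 0.0475), and the other 5 gave 0.0502 to 0.0793. In the 4 libraries without Y-linked transcripts the edgeR adjusted p was 0.0980. Tgm6 was at 18.1, 15.1 and 20.8 CPM in the knockout libraries and 29.2, 17.6 and 43.1 CPM in the control libraries, in the same order, a log2 fold change of −0.74 with an edgeR adjusted p of 0.231.

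Sbsn, Dmkn and Krtdap lie next to each other on chromosome 7 and encode secreted proteins of the suprabasal layers. Sbsn (30751471 to 30756134), Dmkn (30763756 to 30781063) and Krtdap (30787896 to 30791097) are all on the plus strand, with gaps of 7.62 and 6.83 kb, and the 3 genes together span 39.6 kb. In each of them the knockout libraries lay below the control libraries, and none passed the test. Their starts are shown because the 3 genes differed in the same direction, with the windows at chr7:30751221-30751470, chr7:30763506-30763755 (the first of 3 Dmkn starts) and chr7:30787655-30787904.
Sbsn: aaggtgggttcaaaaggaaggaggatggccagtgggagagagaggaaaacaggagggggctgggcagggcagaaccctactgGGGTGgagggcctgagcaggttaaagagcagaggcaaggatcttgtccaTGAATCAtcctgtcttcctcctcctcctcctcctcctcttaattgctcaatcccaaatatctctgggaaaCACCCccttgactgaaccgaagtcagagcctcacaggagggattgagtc
Dmkn: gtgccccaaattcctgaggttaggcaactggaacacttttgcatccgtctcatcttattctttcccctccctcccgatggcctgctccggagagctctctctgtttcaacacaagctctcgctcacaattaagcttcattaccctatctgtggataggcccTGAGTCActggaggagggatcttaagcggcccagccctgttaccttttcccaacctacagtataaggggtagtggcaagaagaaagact
Krtdap: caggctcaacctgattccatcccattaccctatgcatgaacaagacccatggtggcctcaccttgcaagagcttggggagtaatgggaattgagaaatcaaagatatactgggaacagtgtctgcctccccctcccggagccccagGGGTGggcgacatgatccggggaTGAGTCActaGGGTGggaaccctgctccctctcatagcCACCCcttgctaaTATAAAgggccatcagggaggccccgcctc
Each of the 3 windows held an AP-1 match, TGAATCA with its first base at −119 from the start in Sbsn, TGAGTCA at −89 in Dmkn and TGAGTCA at −81 in Krtdap. The other Dmkn starts also held TGAGTCA, at −91 and −82. The windows of the first and second Dmkn starts begin at 30763506 and 30763508, so their matches are the same site. Among the 10 genes these 3, which adjoin, were the only ones with the AP-1 letters. The letters occurred in 5 of the genes' 14 windows, with that Dmkn site counted in both of its windows, beside 6.75% of all windows. Krtdap also had TATAAA at −30, as Tgm3 had at −28. CACCC or its reverse GGGTG occurred in 10 of the 14 windows, beside 52.0% of all windows, and the GLI and GRHL letters in 0 of the 14. These matches are descriptions of the letters only.

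Sbsn, suprabasin, had 1448, 1390 and 1516 CPM in the knockout libraries DE679, DE685 and DE688 and 1679, 1575 and 1640 CPM in DE680, DE684 and DE689. The means were 1452 ± 63.2 and 1631 ± 52.9 CPM (SD, n = 3 each), and the log2 fold change was −0.17 (SE 0.063, 95% interval −0.31 to −0.023, edgeR adjusted p 0.211). The highest knockout library stood close to the lowest control library, so the separation is small. Sbsn shares 279 exonic bases, 7.70% of its length, with Tmem147os on the same strand, whose log2 fold change was 0.073.

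Dmkn, dermokine, had 1654, 1635 and 1625 CPM in DE679, DE685 and DE688 and 2052, 2022 and 1859 CPM in DE680, DE684 and DE689. The knockout libraries were almost the same, and all were below the control. The means were 1638 ± 14.7 and 1978 ± 104 CPM (SD, n = 3 each), with a log2 fold change of −0.27 (SE 0.063, 95% interval −0.42 to −0.13, edgeR adjusted p 0.0869). Its counts, 28299 to 46856 per library, were the largest of the 10 genes.

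Krtdap had 1349, 1383 and 1463 CPM in the knockout libraries DE679, DE685 and DE688 and 1687, 1635 and 1780 CPM in DE680, DE684 and DE689. The means were 1398 ± 58.7 and 1700 ± 73.4 CPM (SD, n = 3 each). On the log2 scale the difference was −0.28 (SE 0.064, 95% interval −0.43 to −0.13, edgeR adjusted p 0.0858). The values for Dmkn and Krtdap were thus alike in size, and the DESeq2 Wald test called both lower, with adjusted p of 0.00132 and 0.00149. The 7 other tested genes within 100 kb of the stretch had log2 fold changes from −0.50 to 0.33 with a median of 0.0027, and 0 of them passed edgeR or DESeq2 or had an unadjusted p under 0.05.

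Calm4, a calmodulin-like protein of differentiating keratinocytes, had the largest difference among the genes that were lower. It lies on chromosome 13 (3837757 to 3838673, plus strand) in 1 exon, beside its relatives Calml3 and Calm5. The window before its start, chr13:3837507-3837756, is shown for comparison with those of the secreted proteins and held 2 GGGTG matches and no AP-1 letters.
Calm4: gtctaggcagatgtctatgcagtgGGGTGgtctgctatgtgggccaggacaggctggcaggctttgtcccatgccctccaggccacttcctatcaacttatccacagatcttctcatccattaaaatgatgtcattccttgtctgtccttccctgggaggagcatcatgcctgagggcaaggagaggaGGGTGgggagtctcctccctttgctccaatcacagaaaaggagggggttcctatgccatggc
Calm4 had 894, 1012 and 907 CPM in DE679, DE685 and DE688 and 1292, 1428 and 1164 CPM in DE680, DE684 and DE689. Every knockout library was below every control library. The means were 937 ± 64.9 and 1295 ± 132 CPM (SD, n = 3 each), and the log2 fold change was −0.47 (SE 0.091, 95% interval −0.68 to −0.26, edgeR adjusted p 0.0560), just above the threshold. DESeq2 (adjusted p 4.86e-05), limma-voom (0.0483) and the edgeR fit with sex as a covariate (0.0117) called it lower. Over the 6 fits that left out 1 library the edgeR adjusted p was 0.0559 to 0.227 and the log2 fold change −0.54 to −0.39. Within 100 kb of Calm4, 4 other genes were tested and 0 passed edgeR or DESeq2. Of these, Calml3 (−0.20) and Calm5 (−0.27) had an unadjusted p under 0.05 and groups apart below, and Net1 and Gm47813 had values above 0.

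Calm4 and Calm5 transcripts were 84.7% identical over 613 bases, so reads that both could give are uncertain. Estimated counts of Calm4, Sbsn, Krtdap and Dmkn were not whole numbers in any of the 6 libraries, and those of Tgm1 in 3, and the cause was not tested. Calm5, far lower at 27.9 ± 3.31 against 33.6 ± 1.90 CPM, had a log2 fold change of −0.27 (edgeR adjusted p 0.220). Of the 5 other calmodulin genes tested, 0 passed edgeR or DESeq2 and 3 had an unadjusted p under 0.05, with 3 lower and 2 higher. Calm3, which encodes the ubiquitous calmodulin, was at 71.7 ± 2.72 and 61.4 ± 4.00 CPM (SD, n = 3 each), at a log2 fold change of 0.23 with an edgeR adjusted p of 0.148.

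**Figure D3:**
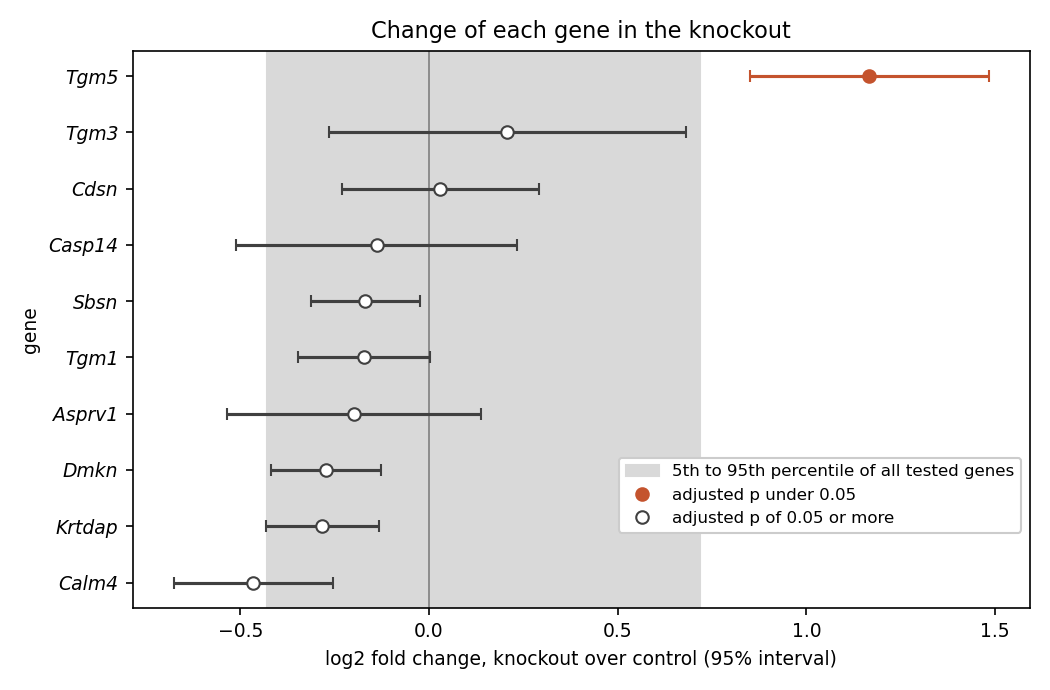
Log2 fold change of knockout over control (x axis) for each of the 10 genes (y axis), with 95% intervals from the edgeR fit. The grey band holds the 5th to 95th percentile of all tested genes, from −0.43 to 0.72. Tgm5 at 1.17 lies beyond it on the high side and Calm4 at −0.47 just beyond it on the low side.

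The proteases and the adhesion protein did not differ detectably. Casp14, a caspase that cuts filaggrin products rather than killing cells, lies on chromosome 10 (78711991 to 78718294, minus strand). It had 57.4, 61.1 and 55.7 CPM in DE679, DE685 and DE688 and 61.7, 80.8 and 49.2 CPM in DE680, DE684 and DE689. The control libraries spread on both sides of the knockout, and the log2 fold change was −0.14 (95% interval −0.51 to 0.23, edgeR adjusted p 0.677). Without DE684, its highest library, the log2 fold change was 0.065.

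Asprv1, a retroviral-like aspartic protease that also processes profilaggrin, lies on chromosome 6 (86628164 to 86629710, plus strand). It had 152, 186 and 174 CPM in DE679, DE685 and DE688 and 204, 230 and 154 CPM in DE680, DE684 and DE689. The groups overlapped through the control library DE689. The log2 fold change was −0.20 (95% interval −0.53 to 0.14, edgeR adjusted p 0.491), and it was −0.067 without DE684 and −0.35 without DE689.

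Cdsn, corneodesmosin, lies on chromosome 17 (35552128 to 35557180, plus strand) and is the glue between the dead cells. It had 274, 358 and 355 CPM in DE679, DE685 and DE688 and 327, 295 and 345 CPM in DE680, DE684 and DE689. The groups overlapped, and the log2 fold change of 0.030 had a 95% interval of −0.23 to 0.29 (edgeR adjusted p 0.915). Its direction turned when any 1 of DE685, DE688 or DE684 was left out, with values from −0.036 to −0.029.

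**Figure D4:**
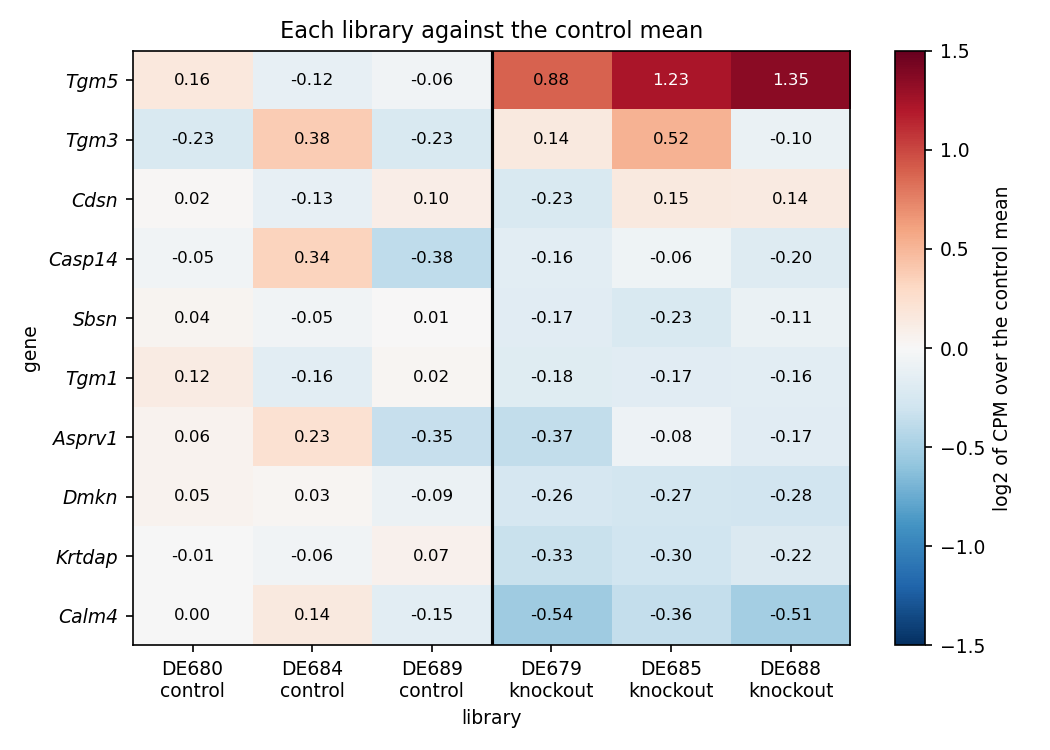
Each library (x axis) against the control mean for each of the 10 genes (y axis), as log2 of the CPM ratio in colour and number. Tgm5 is between 0.88 and 1.35 in the knockout libraries, Calm4 between −0.54 and −0.36, and DE684 is the highest control library for Tgm3, Casp14, Asprv1 and Calm4.

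Libraries within a group differed in the levels of the keratins that mark differentiated cells. Krt1 and Krt10 together were highest in DE684, at 29575 CPM, and in the knockout highest in DE685, at 21463 CPM, both of them libraries with Y-linked transcripts. Markers of the tail scale, Krt36 and Krt84, went the other way and were lowest in DE685 (9412 CPM summed) and DE684 (11107 CPM). The 10 genes were therefore also read against these keratins, as log2 of each gene's count over the summed counts of Krt1 and Krt10. On that scale 9 of the 10 genes were higher in the knockout, and all but Tgm5 and Tgm3 overlapped between the groups. The reference was lower in the knockout on average, which raises the log2 difference of every gene by the same amount. The share of all tested genes higher on this scale was not computed, so the count is not particular to these genes. Tgm5 was higher by 1.46 and Tgm3 by 0.52, each with an exact two-sided permutation p of 0.1, the smallest that 3 against 3 allows. Calm4 was at −0.16 (exact permutation p 0.5), Dmkn at 0.032 and Krtdap at 0.020 (both exact permutation p 1.0).

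These directions depend on the reference. Summed Krt1 and Krt10 were at 17435 ± 3768 and 21891 ± 7015 CPM in knockout and control (SD, n = 3 each). Without DE688 4 genes were higher on that scale, and without DE684 5. Against the basal keratins Krt5 and Krt14, 2 of the 10 genes were higher, Tgm5 by 1.02 and Tgm3 by 0.078. Against them Calm4 was at −0.60, Krtdap at −0.42, Dmkn at −0.41, Asprv1 at −0.32, Sbsn at −0.31 and Casp14 at −0.25, each with groups that did not overlap (exact two-sided permutation p 0.1). Krt5 and Krt14 together were at 25218 ± 1870 and 22993 ± 2579 CPM in knockout and control. This reference lowers the log2 difference of every gene by the same amount. The shares of all tested genes higher or apart against it were not computed.

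The difference between the groups was also read within each kind of library. Between DE685 and DE684, the pair with Y-linked transcripts, the log2 difference was 1.35 for Tgm5, −0.50 for Calm4, −0.31 for Dmkn, −0.24 for Krtdap and −0.18 for Sbsn. Between the means of the other 4 libraries it was 1.08, −0.45, −0.25, −0.30 and −0.16 for the same genes. These 5 genes and Tgm1 kept 1 direction in both. That was fixed in advance, because every knockout library lay on the same side of every control library in each of them. Tgm3 and Asprv1, whose groups overlapped, also kept 1 direction. Casp14 (−0.40 and 0.027) and Cdsn (0.28 and −0.095) did not.

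Related genes outside the 10 give the setting. The 9 lists held 70 genes, of which 66 were tested. Of these, 2 rose (Tgm2 and Krt77) and 1 fell (Cnfn), or 4.55%, beside 1.6% of all genes in the edgeR test. The log2 fold change was below 0 for 44 of the 66, the median was −0.11, and the groups did not overlap for 24, or 36.4%, beside 25.6% of all genes. The counts of each list below stand beside the same shares of all genes: 50.7% lower, 12.8% apart below, 12.8% apart above and 19% with an unadjusted p under 0.05. The DESeq2 counts stand beside 879 of all 15422 genes called by DESeq2, 569 higher and 310 lower.

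Of the envelope proteins that transglutaminases cross-link, 10 of 11 were tested and 8 were lower, with a median log2 fold change of −0.31. The edgeR test called 1 of them, 6 had an unadjusted p under 0.05 and DESeq2 called 3 lower, Cnfn, Sprr1b and Lce1c. Cnfn, cornifelin, an envelope component, had 52.7, 59.0 and 62.0 CPM in DE679, DE685 and DE688 and 76.7, 73.8 and 77.9 CPM in DE680, DE684 and DE689. The groups were clearly apart, and Cnfn fell by 0.40 on the log2 scale (SE 0.073, edgeR adjusted p 0.0466). With 1 library left out at a time the call was lost in all 6 fits (edgeR adjusted p 0.0799 to 0.153) with upper-quartile factors (0.0539) and in the libraries without Y-linked transcripts (0.141). Sprr1b, a small proline-rich envelope protein, was at 45.2 ± 9.20 and 75.4 ± 9.26 CPM (log2 fold change −0.74, edgeR adjusted p 0.0603). It was called lower with DESeq2 (adjusted p 6.24e-05), with limma-voom (0.0475) and with edgeR under a sex covariate (0.00384), in the libraries without Y-linked transcripts (0.0223) and without DE685 (0.0288). Its relative Sprr1a was at 159 ± 32.8 and 129 ± 29.1 CPM (0.31, edgeR adjusted p 0.417).

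Corneodesmosome proteins, the proteases that cut them and an inhibitor of those proteases made up 9 tested genes. All 9 were lower and 4 had groups apart below, beside 50.7% and 12.8% of all genes. Of these, 0 passed the edgeR test, 3 had an unadjusted p under 0.05 and DESeq2 called 2 lower, Dsc1 and Klk7. Klk5, a kallikrein protease that starts shedding, had the lowest value, 52.9 ± 6.74 against 72.1 ± 16.4 CPM (log2 fold change −0.45, edgeR adjusted p 0.198), and the edgeR fit with a sex covariate called it lower (adjusted p 0.0365). Filaggrin, which Casp14 and Asprv1 help to process, its relatives and other enzymes of its processing showed no common direction. In that list 4 of 9 were lower, 0 passed the edgeR test, 2 had an unadjusted p under 0.05 and DESeq2 called 1 higher, Capn1. Hrnr, a filaggrin relative, was at 581 ± 57.9 and 741 ± 264 CPM, with DE684 far above the others at 1045 CPM. Padi3, which converts arginine to citrulline, was barely detected, at 0.896 ± 0.225 and 0.608 ± 0.413 CPM.

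The suprabasal keratins held the largest rise of the lists. Krt77, a keratin of sweat ducts and, in mouse, of suprabasal epidermis, had 22.3, 43.8 and 45.4 CPM in DE679, DE685 and DE688 and 9.89, 11.7 and 15.2 CPM in DE680, DE684 and DE689. It rose by 1.60 on the log2 scale (SE 0.28, edgeR adjusted p 0.0396). It kept the call in 1 of 6 fits that left out a library, the one without DE679 (edgeR adjusted p 0.0102), and the other 5 gave 0.0816 to 0.136. The call was also lost with limma-voom (adjusted p 0.0768) and in the libraries without Y-linked transcripts (edgeR adjusted p 0.153). Krt2, a keratin of the upper layers, was at 10294 ± 1438 and 14141 ± 3848 CPM (log2 fold change −0.46, edgeR adjusted p 0.255).

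Of 12 transcription factors of late differentiation, 10 were lower. The edgeR test called 0, 4 had an unadjusted p under 0.05 and DESeq2 called 2 lower, Klf4 and Grhl1. Klf4, which is needed for the barrier, was at 823 ± 82.4 and 1029 ± 65.1 CPM in knockout and control (log2 fold change −0.32, edgeR adjusted p 0.119), and its groups did not overlap. The edgeR fit with a sex covariate (adjusted p 0.0362) and DESeq2 (0.0127) called it lower. Hopx, a homeodomain protein of differentiating cells, was at 131 ± 0.372 and 113 ± 13.7 CPM (0.21, edgeR adjusted p 0.236). In the cystatin M/E list, whose inhibitor Cst6 acts on the cathepsin that activates Tgm3, Cst6 was at 1433 ± 265 and 1096 ± 140 CPM (0.39, edgeR adjusted p 0.224) and Ctsl, that cathepsin, was at 169 ± 38.7 and 177 ± 30.6 CPM (−0.061, edgeR adjusted p 0.882). Among 9 caspases 0 passed edgeR or DESeq2 and 2 had an unadjusted p under 0.05, with Casp12 at 0.59 and Casp1 at −0.058 on the log2 scale as the extremes.

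**Figure D5:**
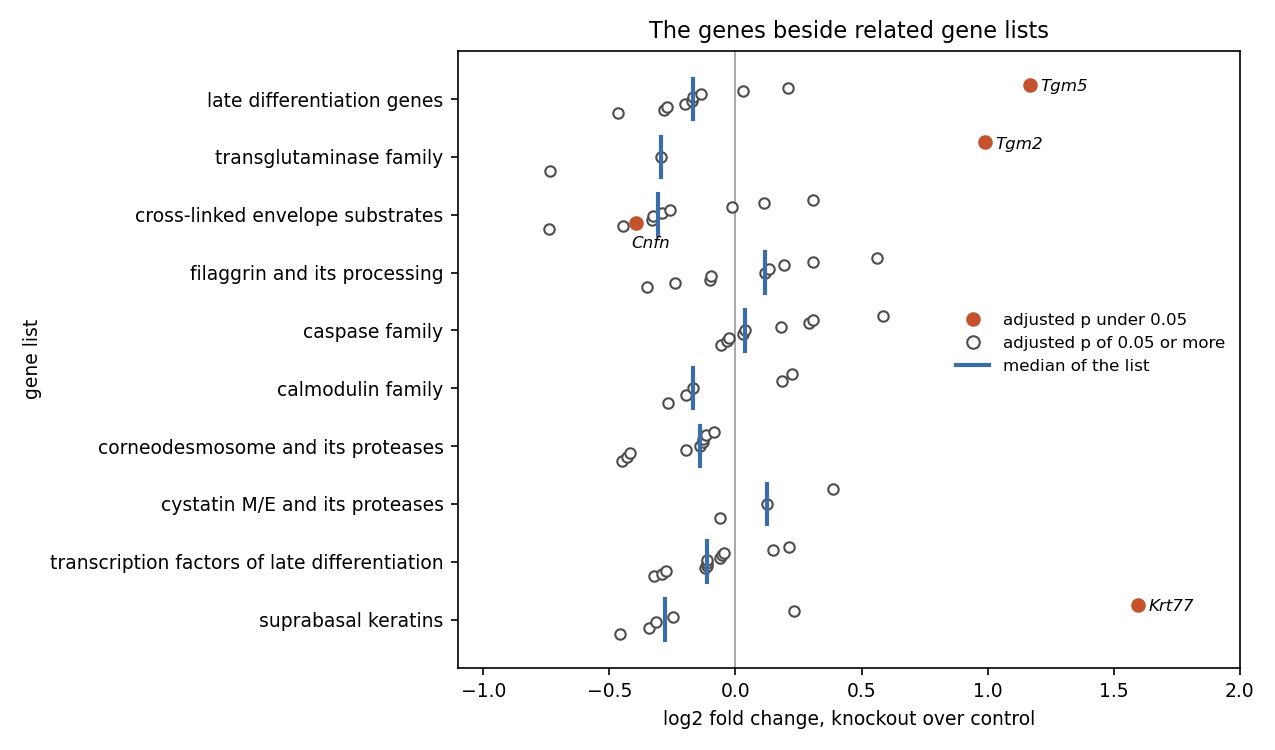
Log2 fold change of knockout over control (x axis) for the 10 late differentiation genes and the 9 related lists (y axis). Points are genes, filled where the edgeR adjusted p is under 0.05, and bars are list medians. Filled points are Tgm5, Tgm2 and Krt77 on the high side and Cnfn on the low side, and the median of the envelope substrates is −0.31.

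Markers of other cells moved with the groups to some extent. The fibroblast markers summed to 129 to 142 CPM in the knockout and 37.3 to 79.0 CPM in the control, and Dcn alone had 122, 112 and 123 CPM in DE679, DE685 and DE688 and 20.8, 40.6 and 34.4 CPM in DE680, DE684 and DE689 (edgeR adjusted p 0.00782). Of the 5 tested, 3, the collagens Col1a1, Col1a2 and Col3a1, were lower in the knockout, and Lum did not pass the filter. Melanocyte markers summed to 63.0 to 100 CPM in the knockout and 42.1 to 68.0 CPM in the control, with 5 of 5 higher, 0 past the edgeR test, 2 at an unadjusted p under 0.05 and 1 called by DESeq2 (Pmel). Those of immune cells summed to 52.7 to 123 and 27.2 to 104 CPM, with 6 of 6 higher and 0 past edgeR, DESeq2 or an unadjusted p of 0.05. Hair follicle markers summed to 2183 to 2461 and 1690 to 2183 CPM, with 4 of 5 higher and Cd34 lower. Most of that sum was Krt79, at 2174 ± 132 and 1848 ± 247 CPM (SD, n = 3 each), whose groups overlapped. Basal markers summed to 30476 to 34248 and 26528 to 31536 CPM, with 4 of 6 higher. DESeq2 called Lhx2 and Lgr5 of the hair follicle markers and Krt15 of the basal markers higher, and the edgeR test called 0 of either list. The summed sebaceous markers overlapped, at 5672 to 6246 and 5699 to 6755 CPM, but Mgst1 was at 339 to 435 CPM in the knockout and 454 to 497 CPM in the control and was called lower by DESeq2 (edgeR adjusted p 0.148). The part of these differences in the levels of the 10 genes was not tested.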

How the data were processed

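RNA of 6 libraries, 3 per group, was sequenced after selection of polyadenylated RNA and a stranded library kit, per the labels' protocols. Per the submitters' processing notes, bcl2fastq 2.20, cutadapt 1.18, STAR 2.7.0f and Partek were used with the build mm10; the counting tool, its use of strand and the annotation are not given in the sources used here. The authors deposited estimated counts per gene, which are not all whole numbers and were rounded first. The authors also deposited a normalized signal, which equals the estimated count times 1 constant per library plus 0.001 and served as an alternative only. Gene positions are those of GENCODE M21 (GRCm38), which matched 96.4% of the positions in the table. Library totals were 17157864 to 25344399, and the floor of 3 counts covers counting error only. The 95% intervals come from the edgeR fit and cover the spread between libraries as well.

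Counts were filtered with filterByExpr, scaled with TMM factors and fitted with glmQLFit and glmQLFTest of edgeR 4.0.16 (R 4.3.3), with group as the only term and Benjamini-Hochberg adjustment over 15422 genes; an adjusted p under 0.05 counted as called. The fit had been planned for raw counts and was kept. It was tested on simulated data. A standard error is the fold change over the square root of F. Alternatives of scaling and filtering were upper-quartile and relative log expression (RLE) factors, a minimum mean of 1 CPM and no filter. Alternatives of the test were DESeq2 1.42.0, limma 3.58.1 (voom, and a trend on log2 of the deposited signal plus 1) and a sex covariate read from Y-linked genes. Further ones were other reference keratins and each library left out. A fit of the libraries without Y-linked transcripts was added after seeing the data. The genes and lists were chosen with earlier results of these data known. From each list, every called gene and the largest rise and fall were named. Dcn, the collagens, Krt1, Krt10, Krt79, Cd34 and the genes named for a DESeq2 call or as neighbours were named outside that rule, after their values were seen.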

Additional observations from a re-analysis of the deposited data

How the results depend on the processing

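No paired analysis was possible because the count columns carry no replicate numbers. The number of called genes, 247 (192 higher and 55 lower), was 879 (569 and 310) with DESeq2, 409 (299 and 110) with a sex covariate and 87 (78 and 9) in the libraries without Y-linked transcripts, an alternative chosen after seeing the data. Leaving out 1 library gave 69 to 121 genes, 65 to 109 higher and 3 to 19 lower. Of the 10 genes, 1 was called, but 4 with DESeq2, 2 with limma-voom, 2 with a sex covariate and 0 without the Y-linked libraries, where Tgm5 had an adjusted p of 0.0711; the last of these fits has 4 libraries. Between 7 and 8 of the 10 were lower than control in every alternative fit of scaling, filter, test or libraries. Relative to Krt1 and Krt10, 9 were higher, but 2 relative to Krt5 and Krt14, and 4 to 9 when 1 library was left out. Each reference shifts all genes alike, no share of all genes was computed on these scales, and the cause was not tested. In the libraries without Y-linked transcripts the direction turned for Casp14 (0.027), Cdsn (−0.096) and Casp1 (0.14). Leaving out 1 library gave log2 fold changes of −0.29 to 0.065 for Casp14, −0.036 to 0.15 for Cdsn, −0.0064 to 0.95 for Casp12, −0.32 to 0.18 for Casp1 and −0.27 to 0.093 for Ctsl, and the direction of each turned in at least 1 fit. Depth limits the low genes most: Padi3, at under 1 CPM in both groups, had a 95% interval of −0.66 to 1.78.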

Other observations

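Across the 6 libraries, the genes most alike to the mean profile of the 10 genes (log2 CPM, centred per gene, 15325 genes compared) were Pts (Pearson r 0.997, Spearman rho 1), Gm14508 (r 0.992, rho 0.94), Ccdc43 (r 0.989, rho 1), Rdh18-ps (r 0.975, rho 1) and Tm7sf2 (r 0.974, rho 0.94). Pts encodes an enzyme of tetrahydrobiopterin synthesis and Tm7sf2 one of cholesterol synthesis. The mean profile was highest in DE684 (0.084) and lowest in DE679 (−0.099). It averages genes that went in opposite directions, such as Tgm5 and Dmkn (r −0.906), so it need not follow any 1 of them. The genes most alike to it were picked as the highest r among 15325 over 6 libraries, and their likeness was not tested. Gm14508 and Rdh18-ps were below 1 CPM in both group means, so their profiles rest on few counts. These are descriptions over 6 libraries that share their depth and makeup.

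Among the 10 genes, Dmkn was most alike to Calm4 (r 0.948, rho 0.77) and Sbsn to Krtdap (r 0.927, rho 0.89), all of them genes whose groups were apart on the low side, as were those of Tgm1. Casp14 was most alike to Asprv1 (r 0.884, rho 0.83), the pair of proteases of filaggrin processing, and Tgm1 to Sbsn (r 0.840, rho 0.94). Tgm3 was most alike to Casp14 (r 0.607, rho 0.54). Tgm5 had no close partner with a positive r among them, with Cdsn the nearest at r 0.299 and rho 0.54. Its r was −0.906 with Dmkn, −0.870 with Calm4, −0.856 with Krtdap and −0.786 with Sbsn, genes whose groups were apart in the opposite direction.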
